A study of Mus musculus with 2 samples.

Results

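Expression of 10 endothelial genes is described here in teratomas, the mixed-tissue tumours that grow from transplanted pluripotent stem cells. The genes were listed by name, and their values are those of the 13 probe sets annotated with 1 of these symbols alone, of 22690 probe sets on the array (12393 genes had such a probe set). Esm1, Angpt2, Flt1 and Kdr make up the tip and sprouting group (4 genes, 6 probe sets), and Tek, Robo4, Vwf, Pecam1, Cdh5 and Cldn5 the mature endothelial group (6 genes, 7 probe sets). One array held RNA of teratomas from C57BL/6 (B6) embryonic stem cells (the B6 ES pool), and the other RNA of teratomas from EiPS cells, labelled as the induced pluripotent line 1E12 and described as regressing tumours (the EiPS pool). Each pool joined 2 tumours, taken 6 weeks after injection under the skin of male B6 mice, whose age is not given in the sources used here. Lines and hosts are all of strain B6, so these signals cannot tell vessels made by the graft from vessels that grew in from the host.

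With 1 array per group, there is no replicate error for any value, no difference was tested, and the comparison is between these 2 pools. The number of arrays limits the precision. Values are signals on a linear scale as deposited, and differences are log2 of the EiPS signal over the B6 ES signal. A floor of 25.8, the 90th percentile over 71 probe sets of olfactory, vomeronasal and taste receptors, marked signals too low to compare. Of 12393 genes, 10962 were above the floor on 1 array or more. The nearest gauge of noise was how far probe sets of 1 gene disagreed, with an SD on the log2 scale of 0.40 over 3805 genes and 0.34 at signals of 100 to 1000. It leaves out variation between tumours, labelling and arrays. In bulk tumour RNA, fewer endothelial cells and less RNA per endothelial cell cannot be told apart.

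Blood vessels grow by sprouting. Vascular endothelial growth factor (VEGF) acts on the endothelial receptor Kdr (VEGFR2), while Flt1 (VEGFR1) binds the same ligand tightly and largely acts as a trap for it. The cell at the front of a sprout, the tip cell, makes Esm1 (endocan) and Angpt2, a ligand of the endothelial receptor Tek (Tie2) that loosens vessels by opposing Angpt1. Cells of settled vessels are held together by Cdh5 (VE-cadherin), Pecam1 (CD31) and the tight junction protein Cldn5, which seals the vessels of the brain.

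Esm1 and Angpt2 stood apart from the other vessel genes, with signals 8.95-fold and 4.55-fold higher in the EiPS pool. Vwf, Robo4, Flt1, Pecam1 and Cdh5 were higher by 1.43-fold to 2.01-fold. Kdr had nearly the same signal in both pools, and Tek and Cldn5 were lower in the EiPS pool by 1.46-fold and 1.85-fold. Of the 10 genes, 3 were at least 2-fold higher, against 5.79% of the 10962 genes compared and 2.91% of the 8305 genes with a signal of 100 or more on both arrays, as all 10 had. None of the 10 was lower by that much, against 3.05% and 2.73%. The genes were proposed with results of these arrays known, so their count is a description of the 10 genes and no evidence about endothelium as a whole.

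RefSeq promoters (build GRCm38.p6) were listed for 6 of the 10 genes. Angpt2, Vwf, Pecam1 and Cdh5 had none listed, so their promoters were not searched. Those of the gene with the largest difference (Esm1), of the VEGF receptor pair (Flt1 and Kdr) and of the gene that was lower by most (Cldn5) are shown. Each is the 250 bases before the start site, 5′ to 3′ on the gene's strand. Capitals mark the core GGAA, read on either strand as GGAA or TTCC, of the site bound by ETS factors, the transcription factor family best known in endothelial promoters.
Esm1 (chr13:113209409-113209658, plus strand): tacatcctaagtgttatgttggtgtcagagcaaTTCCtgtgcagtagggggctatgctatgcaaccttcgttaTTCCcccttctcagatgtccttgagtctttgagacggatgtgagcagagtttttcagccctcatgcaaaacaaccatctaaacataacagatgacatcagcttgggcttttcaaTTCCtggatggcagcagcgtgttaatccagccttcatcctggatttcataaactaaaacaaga
Flt1 (chr5:147726012-147726261, minus strand): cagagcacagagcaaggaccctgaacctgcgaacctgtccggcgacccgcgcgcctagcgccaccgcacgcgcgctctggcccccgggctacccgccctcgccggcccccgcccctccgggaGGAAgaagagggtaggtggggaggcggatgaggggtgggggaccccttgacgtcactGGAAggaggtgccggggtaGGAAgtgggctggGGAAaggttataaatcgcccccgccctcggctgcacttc
Kdr (chr5:75978456-75978705, minus strand): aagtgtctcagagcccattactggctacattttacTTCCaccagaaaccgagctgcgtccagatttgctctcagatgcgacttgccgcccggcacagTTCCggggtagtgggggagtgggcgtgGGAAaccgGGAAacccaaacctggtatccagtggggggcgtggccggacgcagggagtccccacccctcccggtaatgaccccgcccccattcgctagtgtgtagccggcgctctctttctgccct
Cldn5 (chr16:18776597-18776846, plus strand): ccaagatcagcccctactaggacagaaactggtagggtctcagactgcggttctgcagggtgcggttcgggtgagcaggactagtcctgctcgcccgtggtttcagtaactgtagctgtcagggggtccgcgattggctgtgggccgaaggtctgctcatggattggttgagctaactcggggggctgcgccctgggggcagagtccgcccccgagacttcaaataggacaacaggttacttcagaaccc
The GGAA core occurred 3 times before Esm1, 4 times each before Flt1 and Kdr and 0 times before Cldn5. It is a common word, present in 93.4% of 32851 listed promoters of that length with a median of 3 matches, so its presence sets these genes apart from few others. The longer ETS word CCGGAAG (6.91% of promoters) and the hypoxia response core ACGTG (16.6%), each searched on both strands, had 0 matches in all 6 member promoters. Flt1 alone of the 6 held the cAMP response element TGACGTCA (1.55% of promoters) and a TATAAA box (12.4%), while the GC box GGGCGG (32.7%), also on both strands, was found before Flt1 (3 matches), Kdr (2) and Cldn5 (1). None of the matches of the other words overlapped a GGAA core. A match describes letters in these windows and was not tested as a binding site.

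Esm1, a proteoglycan secreted by endothelial tip cells, gave 131.8 for B6 ES and 1180 for EiPS. Its log2 difference of 3.16 was the 19th highest of 10962 genes, and the 7th highest of the 8305 genes with a signal of at least 100 on both arrays. Esm1 has 1 probe set, so no other probe set bears on its value. Angpt2, the destabilising angiopoietin, had signals of 109.1 and 496, also from 1 probe set. Its difference of 2.19 ranked 62nd of all genes compared and 19th of those with both signals at 100 or more. Thus 2 of the 4 sprouting genes were over 4-fold higher, as were 0.821% of all genes and 0.325% of the brighter ones.

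The VEGF receptors differed from each other by some probe sets only. Kdr, the main signalling receptor, gave 345 for B6 ES and 351 for EiPS, a log2 difference of 0.03 that turned to -0.04, -0.10 and -0.02 with quantile normalization, equal medians and loess scaling. Flt1, the decoy receptor, had signals of 206 and 359 by its brightest probe set (1451756_at), 1.74-fold higher in the EiPS pool. Its other probe sets gave 145.1 and 224 (1419300_at, a difference of 0.62) and 59.4 and 59.6 (1454037_a_at, a difference of 0.01). Flt1 RNA is made in full-length and shortened soluble forms, and which forms each probe set reads is not given in the sources used here. Flt1 relative to Kdr was 1.70-fold higher in the EiPS pool by the brightest probe sets, and by the third Flt1 probe set the receptors showed no such gap.

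**Figure D1:**
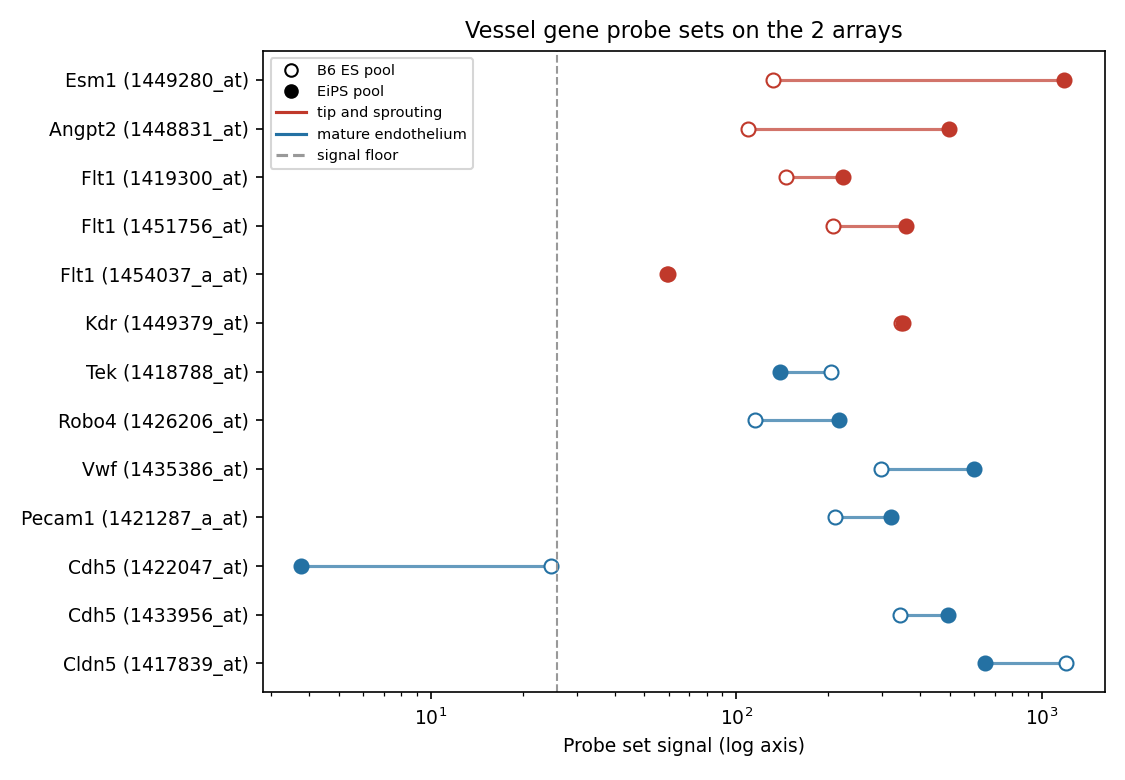
Signal of each of the 13 probe sets (log axis) in the B6 ES pool (open circles) and the EiPS pool (filled circles), 1 array each, with tip and sprouting genes in red, mature endothelial genes in blue and the signal floor of 25.8 as a dashed line. Esm1 and Angpt2 have the longest lines to the right, Kdr and 1 Flt1 probe set have circles that coincide, and Tek and Cldn5 run to the left; 1 Cdh5 probe set lies under the floor on both arrays.

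Among genes of settled endothelium, 4 of 6 were higher in the EiPS pool and 2 lower. Vwf, the clotting glycoprotein stored in endothelial granules, had signals of 298 and 600.0, which is 2.01-fold and lies on the 2-fold line. Robo4, a receptor that stabilises vessels, went from 115.0 in the B6 ES pool to 216 in the EiPS pool (1.88-fold). Pecam1, the platelet endothelial adhesion molecule, had signals of 210.3 and 321 (1.52-fold), and Cdh5, the endothelial cadherin, 344 and 492 (1.43-fold). These last 2 pan-endothelial junction genes, the usual measures of endothelial content, differed by 0.61 and 0.52 on the log2 scale, under 2 times the SD between probe sets of 1 gene. A second Cdh5 probe set (1422047_at) read 24.7 and 3.77, under the floor both times, and gave no difference.

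Tek and Cldn5 went the other way. Tek, the angiopoietin receptor, gave 203.6 for B6 ES and 139.2 for EiPS by its 1 probe set. Its log2 difference of -0.55 was, like those of Pecam1 and Cdh5, under 2 times the SD between probe sets of 1 gene in size. The ratio of its ligand Angpt2 to Tek was 6.65-fold higher in the EiPS pool, mostly through Angpt2. Cldn5 had signals of 1203 and 650, a log2 difference of -0.89 that placed it 445th from the lowest of 10962 genes. Relative to the median of the other 9 genes (0.80), Cldn5 was lower by 1.69 on the log2 scale. Vwf relative to Cldn5 was 3.73-fold higher in the EiPS pool. Such ratios within an array show that the genes differed unequally and not which of them stayed level.

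The median log2 difference was 1.49 over the 4 tip and sprouting genes and 0.56 over the 6 mature genes, beside 0.07 over all 10962 genes. The gap of 0.93 between the groups rests on Esm1 and Angpt2, since Flt1 (0.80) lay within the range of the mature genes (-0.89 to 1.01) and so did Kdr. Over all 10 genes the median was 0.70. Of the 10962 genes compared, 635 were higher and 334 lower by 2-fold or more, so 65.5% of these were higher. That share was 52.6% after quantile normalization and 52.3% with equal medians, which moved the median of all genes by -0.12. Relative to the median of all genes, Esm1 stood at 3.10 and 3.09 on these scales and at 3.10 with the deposited one, and Kdr at -0.04 on all 3.

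**Figure D2:**
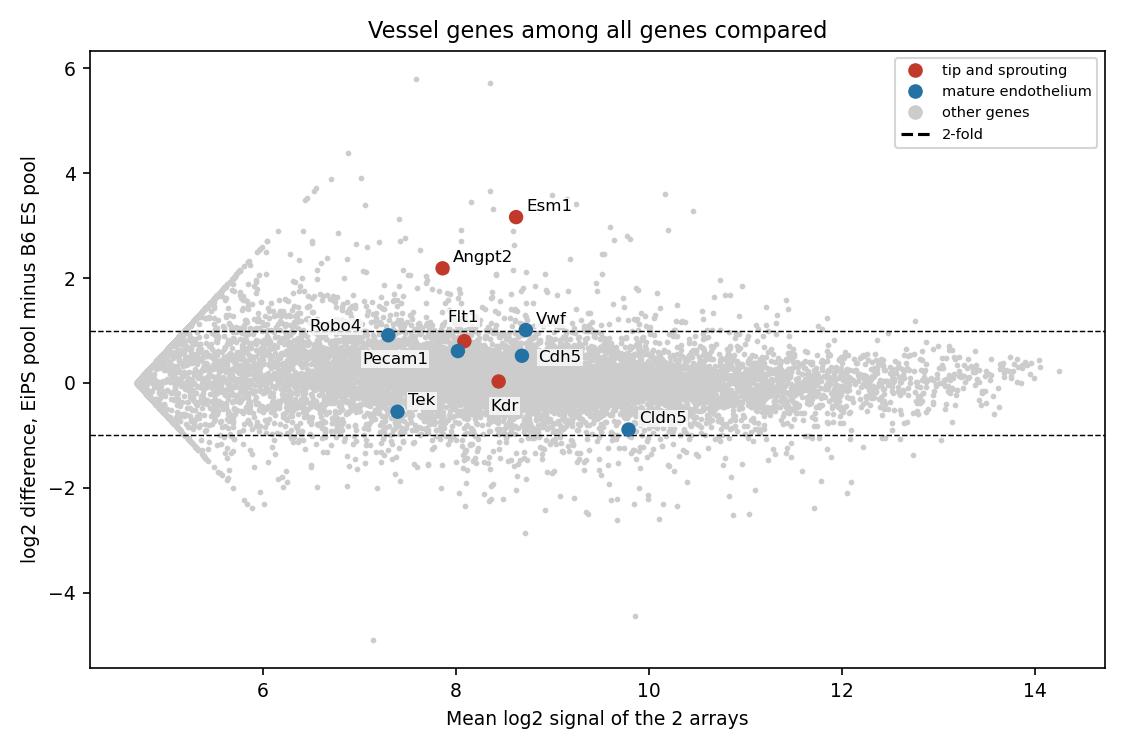
Log2 difference (EiPS pool minus B6 ES pool) against mean log2 signal of the 2 arrays, with low signals set to the floor, for the 10962 genes compared (grey), the tip and sprouting genes (red) and the mature endothelial genes (blue); dashed lines mark 2-fold. Esm1 and Angpt2 lie above nearly all genes of their signal, Vwf sits on the upper line, and the other 7 lie between the lines.

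Other endothelial genes place these values. Of 30 further pan-endothelial genes, 26 had a probe set of their own and 25 were above the floor on both arrays, with Erg, an ETS factor, under it on both (named after its values were seen). The median difference of the 25 was 0.28, with 20 higher and 5 lower. By their brightest probe sets, 0 were at least 2-fold higher (5.79% of all genes compared were) and 0 lower by as much (3.05%). Aqp1, a water channel, was 1.98-fold higher, the adhesion molecule Icam2 1.83-fold and the protein C receptor Procr 1.77-fold, while Clec14a, an endothelial lectin, was 1.85-fold lower, the same size as Cldn5. Measured from the median of this list, Esm1 was higher by 2.88 on the log2 scale and Angpt2 by 1.91, and Tek and Cldn5 differed by -0.83 and -1.17.

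Several ligands of the VEGF family had higher signals in the EiPS pool. Of 12 further genes of the VEGF and angiopoietin pathway, 10 were above the floor, 7 of them higher and 3 lower, with a median of 0.52. Vegfa, the central VEGF ligand, had signals of 267 and 659 (2.47-fold higher, with its other probe set differing by 0.89). Pgf, a ligand of Flt1 and not of Kdr, had signals of 150.3 and 395 (2.63-fold). Vegfc and Vegfd, ligands of the lymphatic receptor Flt4, were 1.71-fold and 1.64-fold higher, and Vegfb, named after its values were seen, was 1.27-fold lower. The probe sets of Vegfd ranged from 0.51 to 1.10 on the log2 scale. Vegfa was thus higher while Kdr, its receptor, was level, a change of 2.42-fold in their ratio. Angpt1, the ligand that Angpt2 opposes, had signals of 21.7 and 17.9, both under the floor, so the balance of the 2 angiopoietins could not be given.

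Further tip-cell genes also had higher signals. The list median was 1.13, and of 13 genes 11 were higher and 2 lower, 8 of them higher by 2-fold or more (5.79% of all genes compared were) and 0 lower by as much (3.05%). Adm, the vessel peptide adrenomedullin, had signals of 58.3 and 375 (6.44-fold). Igfbp3, which binds insulin-like growth factors, was 2.64-fold higher, the potassium channel subunit Kcne3 2.55-fold and the basement membrane collagen Col4a2 2.36-fold. The other 4 of the 8, named after their values were seen, were Col4a1, Unc5b, Cxcr4 and the Notch ligand Dll4, and the 2 that were lower were Ramp3 and, by 0.03, Pdgfb. Several of these genes, among them Igfbp3, Adm, Cxcr4 and the collagens, are also made by other cells of a teratoma. With log2(signal + 64), which pulls in low signals, 5 of the 13 were at least 2-fold higher. This list, like the other context lists, was chosen with earlier results of these data known. Its counts describe these 13 genes and are no evidence about tip cells.

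Genes of the stalk cells that follow the tip were divided. Of 8 Notch and stalk-cell genes, 5 were higher and 3 lower, and the median was 0.01. By 2-fold or more, 0 were higher (5.79% of all genes compared were) and 0 lower (3.05%). Notch4, the endothelial Notch receptor, the Notch target Hey1 and Notch1 were 1.99-fold, 1.93-fold and 1.84-fold higher, while Aplnr, the receptor of the tip-cell peptide apelin, was 1.67-fold lower. The list median turned below 0 under quantile normalization, equal medians and loess scaling.

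**Figure D3:**
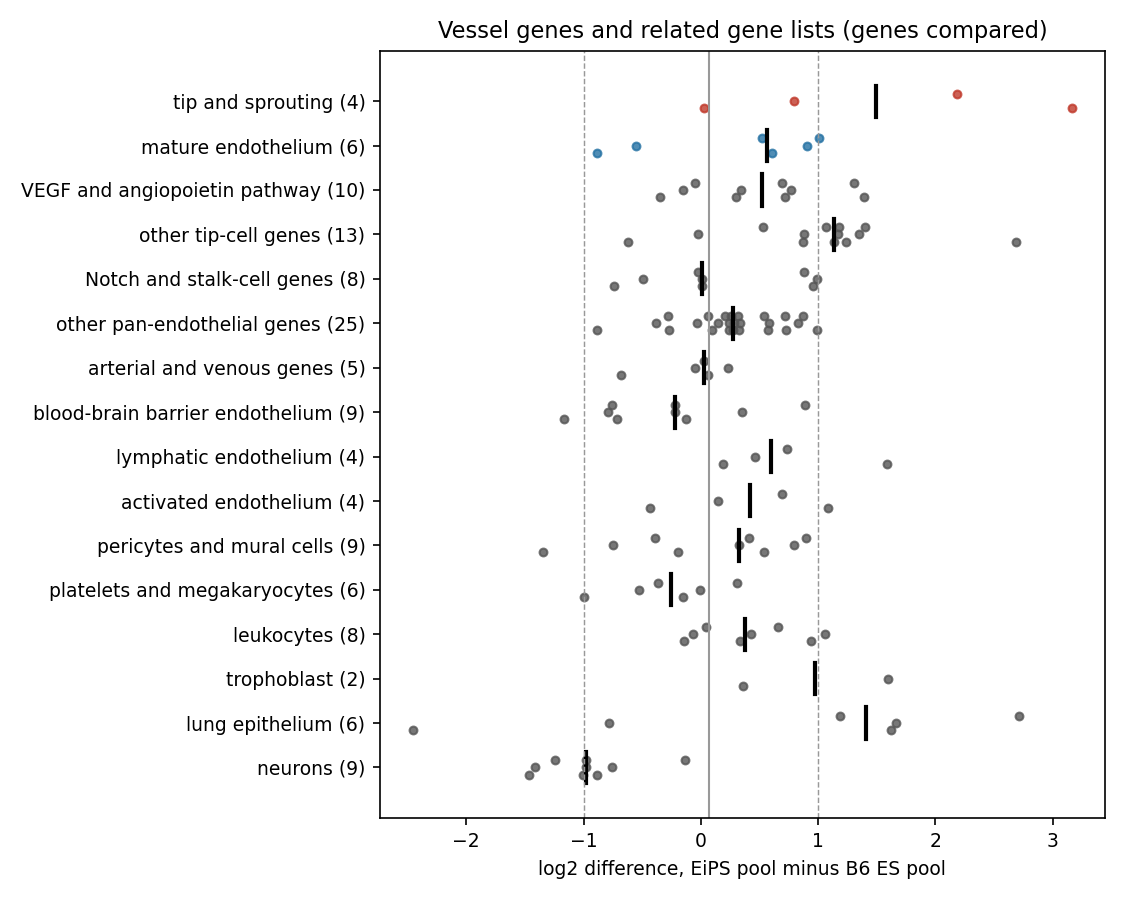
Log2 difference (EiPS pool minus B6 ES pool) of each gene compared (points) in the 2 vessel groups and 14 related lists, with the number of genes compared in brackets, list medians as black bars, the median of all genes (0.07) as a grey line and 2-fold as dashed lines. The tip-cell lists lie to the right, with medians of 1.49 and 1.13, and so do lung epithelium (1.40) and trophoblast (0.98, 2 genes). The lung genes spread widely, from -2.45 to 2.71. Other pan-endothelial genes cluster near 0.28. The medians of blood-brain barrier genes, of platelets and megakaryocytes and of neurons lie to the left.

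Cldn5 is strongest in brain vessels, and a list of blood-brain barrier genes was read beside it. Of 9 such genes, 7 were lower in the EiPS pool and 2 higher, with a median of -0.22. Slco1c1, the thyroid hormone carrier of brain vessels, had signals of 752 and 335 (2.24-fold lower). Slc7a5, an amino acid carrier, was 1.73-fold lower. The drug efflux pump Abcb1a was 1.69-fold lower, and by -1.18 on the log2 scale with its other probe set. Slc2a1, a glucose carrier made by many tissues, was 1.85-fold higher. Neuronal genes were also lower: 9 of 9 were lower, and 4 of these by 2-fold or more, against 3.05% of all genes compared. Their median was -0.98, and their summed signal was 22720 for B6 ES and 10489 for EiPS. Stmn2 and Nefl, neuronal cytoskeleton genes, were 2.66-fold and 2.77-fold lower, the growth cone gene Gap43 2.36-fold and Map2 2.01-fold, the last with a second probe set that was higher by 0.67 on the log2 scale. The part of neural tissue in the Cldn5 difference was not tested. Cldn5 is also made in lung epithelium, where 4 of 6 genes above the floor were at least 2-fold higher (5.79% of all genes compared were). Of these, the surfactant genes Sftpc and Sftpb were higher by 6.57-fold and 3.18-fold. Sftpa1 was higher by at least 3.07-fold, and by 0.27 on the log2 scale with its other probe set. The B6 ES signals of Sftpc, Sftpb and Sftpa1 were 103.9, 55.2 and 6.67, the last under the floor. The other 2 genes were lower, Scgb3a2 by 5.48-fold (3.05% of all genes were at least 2-fold lower) and Scgb1a1 by 1.72-fold. The summed signal of that list was 2373 for B6 ES and 2055 for EiPS. Nkx2-1, its defining factor, was under the floor on both arrays. The part of lung epithelium in the Cldn5 difference was not tested.

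Other cells that make Vwf, Pecam1 and Flt1 were read in the same way. No such list was read for Esm1 and Angpt2, and which cells gave their signals was not tested. Vwf is also carried by platelets and megakaryocytes, of whose genes 1 of 6 was higher and 5 lower (median -0.26). Pf4 was 1.24-fold higher, and Itga2b and Gp5 were 1.29-fold and 1.44-fold lower. Gp1bb (280 and 140.3) was lower, by only 0.29 on the log2 scale with its other probe set. Their summed signal was 1710 for B6 ES and 1580.0 for EiPS, and Gp9 was under the floor on both. Pecam1 is also found on leukocytes, and of 8 leukocyte genes 6 were higher and 2 lower (median 0.38). Cd68, of macrophages, was 2.09-fold higher, Cd52 1.92-fold, Laptm5 1.58-fold and Ptprc, the common leukocyte antigen, 1.34-fold. The probe sets of Laptm5 ranged from 0.66 to 1.45 on the log2 scale. The 2 lower genes, named after their values were seen, were Csf1r, also of macrophages, and Coro1a. Csf1r had signals of 2507 and 2269 (1.11-fold lower), with probe sets from -0.41 to -0.11, and Coro1a was 1.05-fold lower. The summed signal of the list was 5648 and 6879. The list median is in the direction of Pecam1, and the part of leukocytes in the Pecam1 difference was not tested. Flt1 is also made by trophoblast, for which 3 of 8 listed genes had a probe set; Tpbpa had signals of 43.2 and 130.7, Hand1 of 37.8 and 48.4, and Ascl2 was under the floor on both arrays, with a summed signal of 87.6 and 189.0. The part of trophoblast in the Flt1 difference was not tested.

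Mural cells, which wrap vessels and respond to platelet-derived growth factor, had a list median of 0.33, with 5 of 9 higher and 4 lower. Pdgfrb, the pericyte receptor, and Kcnj8, a pericyte potassium channel, were 1.86-fold and 1.74-fold higher. The other probe set of Pdgfrb was higher by 1.14 on the log2 scale. Abcc9, the partner of Kcnj8, was 1.69-fold lower, and Des, a filament protein shared with muscle, 2.54-fold lower. The summed mural signal was nearly equal, at 11543 and 11580.1. Of 6 genes of activated endothelium, the selectin Sele was under the floor on both arrays, and so was the brightest of the 2 probe sets of Selp (both named after their values were seen), Icam1 was 2.12-fold higher, and the probe sets of Vcam1 ranged from -0.28 to 0.46, the brightest 1.11-fold higher. The vessel address protein Madcam1 was at least 1.62-fold higher, and Ackr1, a chemokine receptor of venules, 1.35-fold lower.

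Apart from Flt1, the order of the 10 genes was little affected by the processing. With its probe sets averaged, Flt1 fell to 0.48, below Pecam1 (0.61) and Cdh5 (0.52). Several settings could not alter most of these values: no floor used lay above the members' signals. Averaging or leaving out shared probe sets could not alter genes with 1 unshared probe set, such as Esm1 and Angpt2. Over 10 alternative settings the difference of Esm1 ranged from 2.67 to 3.16 and that of Angpt2 from 1.69 to 2.19. Vwf ranged from 0.87 to 1.01 and Cldn5 from -1.01 to -0.83, so both crossed the 2-fold line on some scales. Kdr alone of the 10 changed sign.

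**Figure D4:**
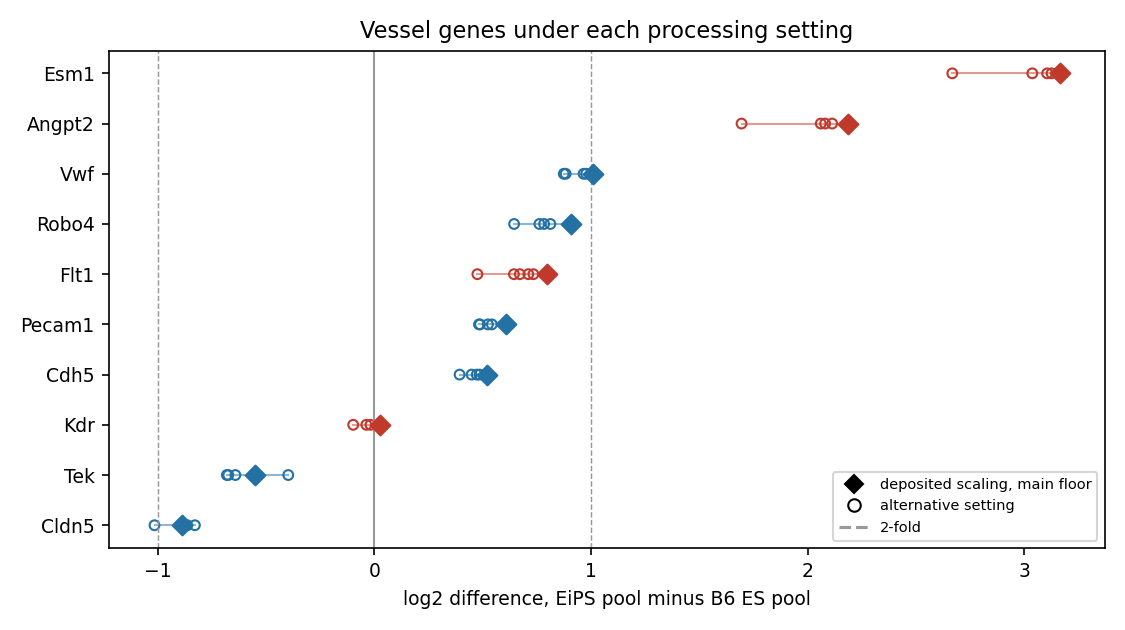
Log2 difference (EiPS pool minus B6 ES pool) of each vessel gene with the deposited scaling and the main floor (diamonds) and under the 10 alternative settings (open circles; 9 for Pecam1), with tip and sprouting genes in red, mature endothelial genes in blue and 2-fold as dashed lines. Esm1 and Angpt2 stay to the right of the other 8 genes under each setting, and Tek and Cldn5 stay below 0.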

How the data were processed

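Expression was measured with Affymetrix mouse arrays, 1 per group, each from 5 µg of total RNA of 2 pooled tumours per the labels' protocols. The deposited values, linear intensities per probe set, were made by the authors with Affymetrix Expression Console and MAS5 per the submitters' processing notes (settings: not given in the sources used here). Both arrays had a 2% trimmed mean of 500.2, so values are relative to each array's total. Because MAS5 subtracts the mismatch probes, low values are the least precise.

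Groups came from the labels. Probe sets were named from the platform annotation, with symbols brought up to date through Entrez identifiers and RefSeq (GRCm38.p6): of 22690, 20380 had 1 symbol (20351 matched by identifier), 691 several, 1555 none, and 64 were controls. A gene took the value of its brightest probe set (by mean log2 over both arrays). Signals under the floor were raised to it, and genes under it on both arrays (1431) were left out. Differences compare 1 array with 1 array, so they were not tested.

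The 10 genes and the 14 context lists were chosen with earlier results of these data known. All 10 genes are named, and in each list the 4 genes with the largest absolute difference, plus the largest in the other direction where both directions reached 2-fold. Angpt1, Nkx2-1, Gp9, Ascl2 and Scgb1a1 fall outside that rule and were named after their values were seen, as were other genes marked so in the text. Calculations used Python 3.11.15, pandas 2.3.3, numpy 2.4.6 and statsmodels 0.14.6, and the procedure was tested on simulated data. Alternatives took the 75th or 98th percentile as the floor, no floor, quantile normalization, log2(signal + 64), loess scaling (span 0.4), equal medians, averaged probe sets, leaving out shared probe sets and, added later, a floor of 100.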

Additional observations from a re-analysis of the deposited data

How the results depend on the processing

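No paired analysis was possible because each group has 1 array. Of 329 values under alternatives, 319 moved by less than the SD between probe sets (0.40) or, for counts, by no more than 1.5 times, and 0 of the differences past 2-fold changed sign. With equal medians, 1 of the 10 genes (Cldn5) was at least 2-fold lower, where the deposited scaling gave 0. The number of the 10 genes at least 2-fold higher was 2 or 3, depending on Vwf. The gap between the tip and mature medians ranged from 0.70 to 0.97. With log2(signal + 64) Esm1 and Angpt2 were at 2.67 and 1.69, since that scale shrinks differences of low signals. Pecam1 has a shared probe set only and had no value without such probe sets. The medians of the small trophoblast and lung lists ranged most, from 0.14 to 1.41 and from 0.81 to 1.43. With Flt1's probe sets averaged, its difference was 0.48. Over all genes, 635 were at least 2-fold higher and 334 lower. These counts were 246 and 187 with log2(signal + 64), 1249 and 720 with no floor, and 305 and 244 with a floor of 100. All 10 genes had brightest signals of at least 109.1 on both arrays, so no floor used here could alter their values. Part of the agreement between settings was thus fixed in advance. The 1 array per group limits every value.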

Other observations

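Genes that separate arteries from veins had a median near that of all genes compared (0.07). Of 6 arterial and venous genes, 5 were above the floor, with a median of 0.02 that turned below 0 under 4 of the 10 alternatives. Efnb2, the arterial ephrin, was 1.18-fold higher, and Gja4, an arterial gap junction gene, 1.04-fold higher, while the kinase gene Bmx was 1.04-fold lower. Nr2f2, the venous transcription factor, had signals of 1499 and 935 and was 1.60-fold lower by its brightest probe set, with probe sets from -1.14 to -0.68; it is also made by many other cell types.

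Of 4 lymphatic genes on the array, 4 were higher in the EiPS pool. Lyve1, the hyaluronan receptor of lymphatic vessels, had signals of 41.5 and 124.3 (2.99-fold, with a second probe set at 1.38 on the log2 scale). Prox1, the lymphatic master factor, was under the floor at 22.1 in the B6 ES pool and reached 43.0 in the EiPS pool, higher by at least 1.66-fold. Pdpn (podoplanin) and Reln were 1.38-fold and 1.14-fold higher. Lyve1 is also made by some macrophages, and the part of macrophages in its difference was not tested.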
